A study of Mus musculus with 16 samples.

Results

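Carboxylesterases are serine hydrolases that split ester bonds in drugs and other xenobiotics, in retinyl and cholesteryl esters and in triacylglycerol. Most mouse forms carry a signal that retains them in the endoplasmic reticulum, and liver and intestine are the tissues best known for them. The mouse family is larger than the human one because tandem duplication on chromosome 8 gave rise to runs of related genes, among them the Ces1 and Ces2 subfamilies. The members examined were Ces1c, Ces1d, Ces1e, Ces1f, Ces1g, Ces2a, Ces2c, Ces2e, Ces3a and Ces3b, 10 genes in all. Every probe of the array whose symbol was one of these was taken, which gave 12 of 25697 probes and 8 of the 10 genes, out of 16593 genes on the array: 3 probes each for Ces1c and Ces3b and 1 each for Ces1d, Ces1e, Ces1f, Ces1g, Ces2a and Ces2e. Ces2c and Ces3a had no probe under their symbols and were not analysed here. The family was selected on the measured difference of Ces1e between genotypes in liver, so the liver genotype values of all its members are given as a description, without p-values.

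RNA of brain and liver came from 8 male C57BL/6J mice aged 17 weeks, all of a line labelled with the allele Pts-R15C-ki. The gene Pts makes an enzyme of tetrahydrobiopterin synthesis, and the study's title is about body fat in mutants with a mild loss of that pathway. Of the mice 4 were wild type and 4 were homozygous for the knock-in, and 1 brain and 1 liver array per mouse gave 4 groups of 4 arrays. The labels name no tissue-specific driver of the allele, no treatment, no diet and no hour of sampling. Each tissue was measured in bulk, so fewer cells of a type and less RNA per cell cannot be told apart.

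Intensities are single-colour bead array signals, and a probe was called detected where the deposited detection p-value was under 0.05. A brain array detected 13241 to 14576 probes, and a liver array 11785 to 12315. The liver arrays of wild-type mice 1 and 2 stood apart from the other 6: on the first principal component, which held 62.2% of the variance, they lay at -43.8 and -46.4, and the others lay between 2.79 and 20.9. Genotype values of the tested member probes in liver are therefore given with and without these 2 arrays. Those of other genes and of gene lists use all 8 liver arrays unless stated, and may rest on these 2. The level of Pts does not check a knock-in of 1 residue. Its 2 probes differed by 0.90 and 0.58 in liver on the log2 scale (homozygous minus wild type, limma adjusted p = 0.0624 and 0.0540). In brain the same 2 probes differed by 0.69 and 0.39, and neither passed the threshold of 0.05. Of 8 hepatocyte markers, 4 were detected on at least 1 brain array and 2 on all 8 brain arrays. The other 4, Alb, Ahsg, Cps1 and Tat, were not detected on any brain array. Each of the 8 was detected on at least 1 liver array, although Alb was dim there (mean log2 levels of 5.06 in wild-type and 5.50 in homozygous mice). In brain 4 of 5 neuron markers were detected, and the exception was Snap25. In liver 3 of these 5 were detected on at least 1 array and 1 on all arrays.

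The members lie on chromosome 8 in 2 uninterrupted runs of protein-coding carboxylesterase genes in the RefSeq annotation. The first run holds 9 genes in the order Ces1a, Ces1b, Ces1c, Ces1d, Ces1e, Ces1f, Ces1g, Ces1h and Ces5a, and the second holds 10 genes in the order Ces2a, Ces2b, Ces2c, Ces2e, Ces2f, Ces2g, Ces2h, Ces3a, Ces3b and Ces4a. Each run contains 5 of the members. Neighbouring genes of such runs can share long stretches of sequence. Probe sequences were not used here, so a signal assigned to 1 member may include RNA of a close relative.

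RefSeq promoter windows (GRCm38.p6) were available for 7 of the 10 members: Ces1c, Ces1e, Ces1g, Ces2a, Ces2c, Ces2e and Ces3b. The 250 bases upstream of the annotated start are shown, 5′ to 3′, for the members on which the liver results below turn. They are Ces1e and Ces1g, which differed most between genotypes, and Ces1c and Ces3b, whose brightest probes had high liver intensities and differed little. Capitals mark matches to any of 5 short motifs searched on both strands. These were TATAAA, the core promoter element known as the TATA box, then GTTAAT, a half-site of the hepatocyte factor HNF1, then AGGTCA, a nuclear receptor half-site, then CACGTG, known as the E-box, and TTATGTAA, known as the D-box, which is bound by the clock output factors Dbp, Tef and Hlf and by the repressor Nfil3. The last motif was added after the sequences had been read.
Ces1e, chr8:93229620-93229869, minus strand: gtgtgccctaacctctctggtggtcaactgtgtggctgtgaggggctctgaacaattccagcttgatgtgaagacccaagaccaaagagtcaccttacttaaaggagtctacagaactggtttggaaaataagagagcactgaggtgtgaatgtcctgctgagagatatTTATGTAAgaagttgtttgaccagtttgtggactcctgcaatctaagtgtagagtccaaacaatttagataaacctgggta
Ces1g, chr8:93337210-93337459, minus strand: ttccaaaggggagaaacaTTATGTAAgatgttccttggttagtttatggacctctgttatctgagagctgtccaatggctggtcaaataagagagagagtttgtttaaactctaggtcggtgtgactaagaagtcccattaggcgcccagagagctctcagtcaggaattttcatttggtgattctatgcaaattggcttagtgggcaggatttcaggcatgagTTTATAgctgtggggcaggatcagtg
Ces1c, chr8:93131284-93131533, minus strand: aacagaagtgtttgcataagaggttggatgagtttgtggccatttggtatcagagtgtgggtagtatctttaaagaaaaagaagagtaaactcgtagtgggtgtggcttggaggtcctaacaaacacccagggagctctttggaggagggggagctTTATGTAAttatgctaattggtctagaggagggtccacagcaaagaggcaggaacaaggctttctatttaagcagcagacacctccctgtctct
Ces3b, chr8:105083505-105083754, plus strand: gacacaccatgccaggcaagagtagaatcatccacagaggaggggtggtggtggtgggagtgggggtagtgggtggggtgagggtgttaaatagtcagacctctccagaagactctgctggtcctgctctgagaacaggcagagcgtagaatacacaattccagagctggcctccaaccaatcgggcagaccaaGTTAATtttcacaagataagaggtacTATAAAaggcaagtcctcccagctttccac

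TTATGTAA occurred in the upstream windows of Ces1c, Ces1e and Ces1g, 3 of the 7 members with an entry, and also in those of their neighbours Ces1a and Ces1b (for Ces1b in 1 of its 2 windows), so that 5 of the 6 Ces1 genes with an entry held it. Over all 32851 promoter windows of the same length the motif occurred in 0.819%. It began 81 bases before the start site of Ces1e, 94 bases before that of Ces1c and 232 bases before that of Ces1g, each time on the strand of the gene. The Ces1 genes arose from each other by duplication, so their matches are not independent. The 250 bases of Ces1c and Ces1b were identical at 80.4% of aligned positions, those of Ces1c and Ces1g at 52.6%, those of Ces1e and Ces1g at 42.5% and those of Ces1e and Ces1c at 41.5%. For comparison, Ces1e and Ces3b, from different subfamilies, matched at 40.9%.

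The other motifs were spread differently. Ces3b held TATAAA 30 bases before its start and GTTAAT 56 bases before it. Ces1g held the TATA motif 26 bases before its start on the opposite strand, and Ces2a held AGGTCA 226 bases before its start. CACGTG was in none of the 7 windows. No motif overlapped another. Over all windows TATAAA occurred in 12.4%, AGGTCA in 14.0%, GTTAAT in 6.43% and CACGTG in 6.02%. Each match is a string of letters in a window and was not tested as a binding site.

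**Figure D1:**
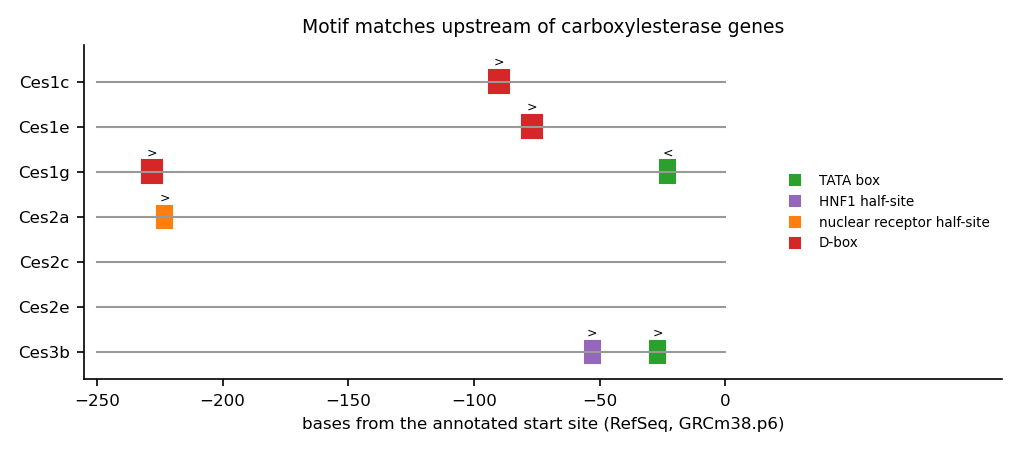
Positions of motif matches in the 250 bases upstream of 7 carboxylesterase genes, with distance from the annotated start site in bases on the horizontal axis and 1 line per gene; boxes are matches, and the signs above them give the strand relative to the gene. The D-box motif is present in Ces1c, Ces1e and Ces1g, at 94, 81 and 232 bases before the start, and absent from the Ces2 genes and Ces3b.

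In both genotypes the family was a liver family on these arrays. Of the 12 member probes, 10 probes of 7 genes were detected on all 8 liver arrays, and 0 were detected on any of the 8 brain arrays. Ces2a was detected on 1 wild-type and 3 homozygous liver arrays. The third probe of Ces1c was detected on no array, while the other 2 probes of that gene were among the bright ones, so the probes of Ces1c disagree. Levels of different probes are not set against each other, because probes differ in their binding.

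The 3 probes of the secreted plasma esterase Ces1c illustrate the range. The first had deposited intensities of 15960, 16411, 16445 and 17674 in wild-type liver and of 18685, 13910, 16247 and 20028 in homozygous liver (mice 1 to 4). Its brain intensities were between 125 and 135 on the 8 arrays, which is the level of probes not above background. The second probe was between 7255 and 10606 in liver, and the third between 111 and 121, as dim as in brain (130 to 143). Liver and brain intensities of the first 2 probes therefore did not overlap.

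Liver and brain were compared within each genotype on log2 intensities normalized over all 16 arrays. Because no member was above background in brain, each difference is a lower bound: the mean liver level was set against the lowest intensity that counted as detected on each brain array. In wild-type mice the first Ces1c probe was at least 460-fold higher in liver than in brain (n = 4 arrays per tissue), and in homozygous mice at least 497-fold. Ces1d, the triacylglycerol hydrolase that mobilizes stored lipid for very low density lipoprotein (VLDL), was at least 298-fold higher in wild-type mice and at least 383-fold in homozygous mice. Ces1f, a second triacylglycerol hydrolase of hepatocytes, was at least 117-fold and at least 160-fold higher in liver.

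Ces1e, also called egasyn, which anchors beta-glucuronidase in the endoplasmic reticulum, was at least 22.1-fold higher in liver in wild-type mice and at least 47.5-fold in homozygous mice. Ces2e, a hydrolase of the Ces2 subfamily, was at least 7.79-fold and at least 9.85-fold higher. Ces1g, whose loss in mice is known to cause lipid accumulation in liver, was at least 4.58-fold and at least 6.96-fold higher. For Ces3b, a liver enzyme of the third subfamily, the bounds of the 3 probes in wild-type mice were 138-fold, 141-fold and 12.2-fold, and in homozygous mice they were 148-fold, 137-fold and 12.6-fold. A low bound marks a dim probe as well as a small difference, and a bound says nothing of the true ratio above it.

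Of all probes tested, 38.8% were called higher in liver in wild-type mice and 40.8% in homozygous mice. The 10 member probes that could be tested passed the detection filter through liver alone and had to differ, so neither their number nor their p supports anything. The limma fit, whose brain side held background values, gave these probes adjusted p-values between 2.05e-14 and 3.6e-06. Without wild-type mice 1 and 2 the bound in wild-type mice was 28.5-fold for Ces1e and 163-fold for Ces1f. Whether the tissue difference itself differed between genotypes was not tested, since its liver side is the comparison that chose the family. The plot of all arrays shows the gap between tissues for the 10 probes and its absence for the third Ces1c probe.

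**Figure D2:**
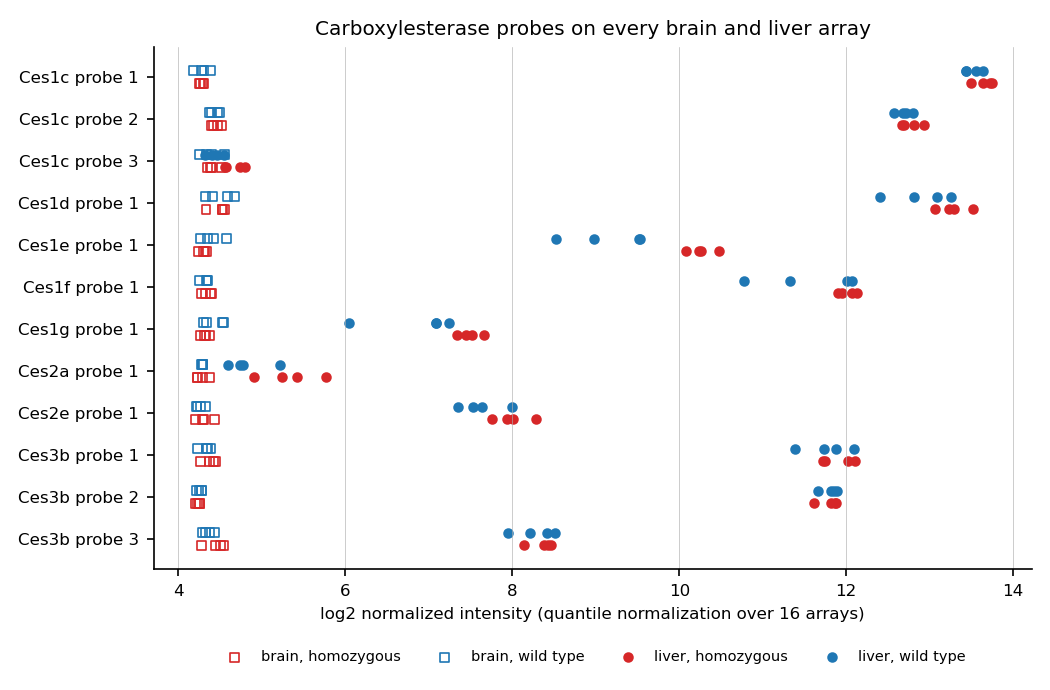
Log2 normalized intensity (horizontal axis) of the 12 carboxylesterase probes on all 16 arrays, 1 row per probe, with filled circles for liver and open squares for brain and colours for genotype. Brain values of every probe lie near the background level, liver values of the 10 probes detected on all liver arrays lie to the right of them, and Ces1e shows the widest gap between genotypes in liver.

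Among related genes outside the members, the array held 5 other carboxylesterase genes with 7 probes. Ces2g was at least 27.9-fold higher in liver in wild-type mice and at least 26.2-fold in homozygous mice by 1 of its 2 probes. The other probe of Ces2g was at least 3.86-fold higher in wild-type liver and was detected on 2 homozygous brain arrays. Ces1b was detected on all liver arrays and on 1 brain array of each genotype, which makes it the only probe of a Ces1 gene above background in any brain sample. Ces2b was detected on no array, and Ces4a and Ces1a were at or near background in liver.

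In brain no genotype difference of a member could be measured. None of the 12 probes passed the detection filter there, so 0 were tested, and no permutation test was made on values at background. For Ces1e the brain intensities ran from 134 to 138 in wild-type mice and from 128 to 134 in homozygous mice, a span within the background. At these levels a difference was not detectable, which is not evidence that none exists. Of the 13862 probes that were tested in brain, 0.0144% passed, by limma with Benjamini-Hochberg adjustment.

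In liver the member that differed most between genotypes was Ces1e, the egasyn gene. Its deposited intensities were 522, 409, 814 and 822 in wild-type mice 1 to 4 and 1332, 965, 1197 and 1708 in homozygous mice 1 to 4. Every homozygous value was above every wild-type value, and wild-type mice 1 and 2 were the lowest. After normalization within liver the log2 levels were 8.80, 8.31, 9.38 and 9.39 in wild-type mice (mean 8.97 ± 0.52, SD, n = 4) and 10.22, 10.02, 10.19 and 10.46 in homozygous mice (10.22 ± 0.18, n = 4). The difference was 1.25 (SE 0.23), or 2.39-fold, and without wild-type mice 1 and 2 it was 0.85 (SE 0.14). Wild-type mice 3 and 4 also lay below every homozygous mouse.

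Ces1e was the 1 member probe that passed the threshold in the comparison that had singled it out; in that comparison 0.368% of the 11955 probes were called higher in homozygous liver and 0.535% lower. Nothing is read from this count, which the choice of the family fixed. The call was also fragile. It was kept when wild-type mouse 3 or wild-type mouse 4 was left out, and lost when any 1 of wild-type mouse 1, wild-type mouse 2 and homozygous mice 1, 2, 3 and 4 was left out, and when wild-type mice 1 and 2 were left out together. It was also lost without background subtraction, with detection required on all 8 arrays and with no detection filter. In all of these fits the change stayed above 0, and over all 17 alternative settings it ran from 0.85 to 1.46.

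Ces1g showed the second largest difference. Its log2 levels were 6.76, 5.64, 6.75 and 6.92 in wild-type liver and 7.14, 7.03, 7.22 and 7.37 in homozygous liver. The groups did not overlap, and wild-type mouse 2 lay more than 1 log2 unit under the other wild-type mice. The difference was 0.67 (SE 0.25), and 0.35 (SE 0.13) without wild-type mice 1 and 2. With all mice kept, it was 0.32 without background subtraction and 0.33 with the authors' normalized values. Ces1e and Ces1g were the 2 member probes, of 11 tested, whose groups did not overlap with homozygous mice higher, and 6.73% of all tested probes had that property.

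The triacylglycerol hydrolases Ces1d and Ces1f differed mainly through wild-type mice 1 and 2. For Ces1f the log2 levels were 11.45, 10.80, 12.22 and 12.28 in wild-type liver and 12.29, 12.16, 12.10 and 12.36 in homozygous liver. Wild-type mice 3 and 4 lay inside the homozygous range. The difference of 0.54 (SE 0.29) accordingly became -0.02 (SE 0.12) without mice 1 and 2. For Ces1d the levels were 13.16, 12.66, 13.48 and 13.66 in wild-type liver and 13.44, 13.64, 13.71 and 13.98 in homozygous liver. The groups overlapped, and the difference was 0.45 (SE 0.21), or 0.11 (SE 0.15) without mice 1 and 2.

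**Figure D3:**
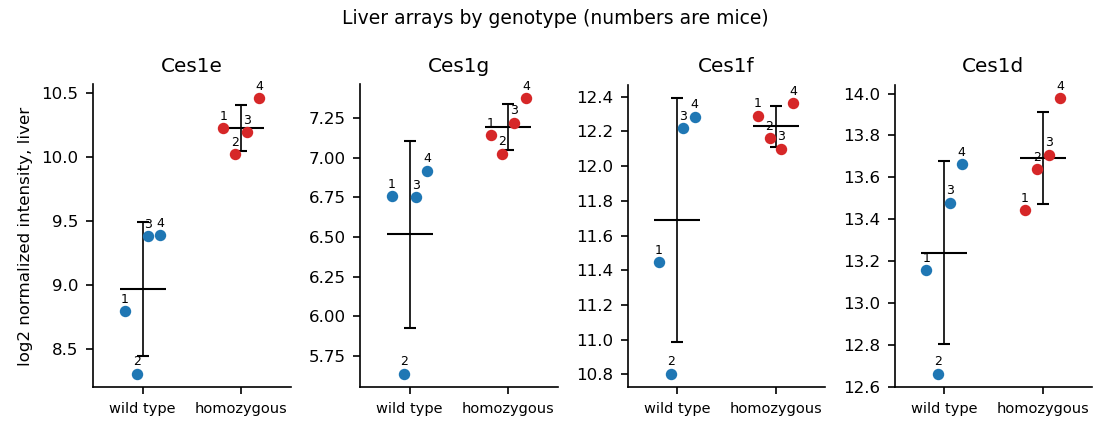
Log2 normalized intensity in liver (vertical axis, a separate range for each panel) of Ces1e, Ces1g, Ces1f and Ces1d by genotype; each point is 1 mouse with its number, and black bars give the mean and the SD of 4 mice. Ces1e and Ces1g do not overlap between genotypes, and for Ces1f wild-type mice 3 and 4 lie among the homozygous mice while mice 1 and 2 lie below.

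The secreted esterase Ces1c differed little. The changes of its 2 detected probes were 0.15 (SE 0.10) and 0.10 (SE 0.11), and 0.06 and 0.02 without wild-type mice 1 and 2. Within the Ces2 subfamily, Ces2e had levels of 7.24, 7.04, 7.34 and 7.74 in wild-type liver and 7.47, 7.67, 7.74 and 8.05 in homozygous liver, which overlap. Its difference was 0.39 (SE 0.17), 0.19 (SE 0.18) without mice 1 and 2, 0.24 without background subtraction and 0.23 with the authors' values. The difference of Ces2a was 0.38 (SE 0.16) and 0.48 (SE 0.19) without these mice, but only 0.09 without background subtraction and 0.19 with the authors' values. Its intensities of 118 to 124 in wild-type and 113 to 145 in homozygous liver were at or near background.

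The 3 probes of Ces3b gave changes of 0.14 (SE 0.18), -0.01 (SE 0.11) and 0.09 (SE 0.15), and of -0.09, -0.09 and -0.01 without wild-type mice 1 and 2. For the first of them the log2 levels were 11.52, 11.92, 12.07 and 12.31 in wild-type liver and 12.23, 12.33, 11.93 and 11.91 in homozygous liver. The ranges of the genotypes overlapped on all 3 probes, and each change was smaller than its SE.

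Over the 11 tested member probes, 10 had a change above 0 and 1 below, with a median of 0.38, against a median of 0.02 and 53.5% above 0 over all tested probes. Without wild-type mice 1 and 2 the median was 0.06 and 7 of the 11 were above 0. The paralogs and repeated probes are not independent, and the comparison chose the family, so these figures describe the probes only. Across the 8 liver arrays the 55 pairs of these probes had correlations from -0.18 to 0.94. The 10 pairs among Ces1d, Ces1e, Ces1f, Ces1g and Ces2e lay between 0.79 and 0.94, and the 24 pairs of a Ces3b probe with another member between -0.18 and 0.62. These points share arrays, normalization and the 2 wild-type mice that stood apart, and are given as a description.

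**Figure D4:**
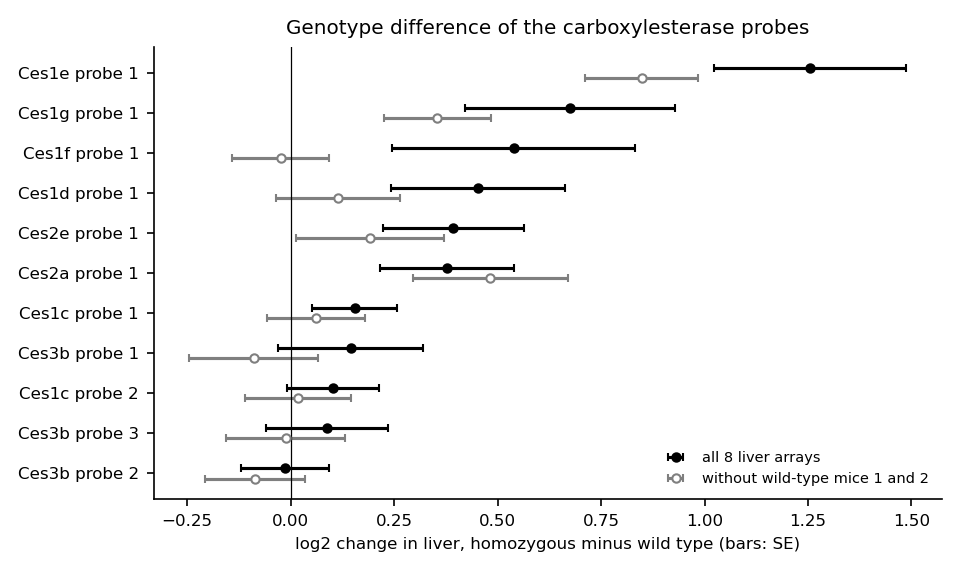
Log2 change in liver, homozygous minus wild type (horizontal axis), of the 11 tested carboxylesterase probes; filled points use all 8 liver arrays, open points leave out wild-type mice 1 and 2, and bars are the SE. Ces1e is at 1.25 and 0.85, Ces1f moves from 0.54 to -0.02, and the Ces1c and Ces3b probes lie near 0 in both.

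The pattern of Ces1e over the 8 liver arrays was most like that of Rassf3 (Pearson r = 0.99), followed by Gstt2, Ccm2l, Trf and Dyrk1b (r = 0.98 each). Gstt2, a theta-class glutathione transferase, had log2 levels of 7.89 to 8.73 in wild-type and 9.31 to 9.59 in homozygous liver, a change of 1.09 (SE 0.19). Trf, the transferrin gene of hepatocytes, followed the same order with a far smaller change of 0.13 (SE 0.08). These 5 genes were picked for their likeness to Ces1e, so their changes are descriptions as well.

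Genes that work around the carboxylesterases were examined as lists. Several esterase genes of mouse liver are induced through the constitutive androstane receptor (CAR, Nr1i3) and the pregnane X receptor (PXR, Nr1i2), which respond to drugs and other foreign compounds. Of 8 tested target genes of these receptors, 2 rose in homozygous liver and 0 fell. Slco1a4, an organic anion transporter, rose by 1.23 (SE 0.18, limma adjusted p = 0.0337), or by 0.77 without background subtraction and 0.73 with the authors' values, and Cyp3a11, the main drug-oxidizing P450 of its family, rose by 0.76 (SE 0.10, limma adjusted p = 0.0251). Over all tested probes 0.368% were called higher and 0.535% lower, and the median of the list was 0.57, against 0.02 over all probes. Cyp2b10, the classical CAR target, had a change of 0.79 (SE 0.35, limma adjusted p = 0.226), and Gadd45b one of -0.44 (limma adjusted p = 0.0829).

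The calls of Slco1a4 and Cyp3a11 depended on single arrays, as that of Ces1e did. Each was lost without wild-type mouse 1, wild-type mouse 2 or homozygous mouse 1, 3 or 4, and without wild-type mice 1 and 2 together, and that of Slco1a4 also with no detection filter. Without those 2 mice the changes were 0.96 for Slco1a4 and 0.62 for Cyp3a11. The receptors themselves did not pass: the change was 0.48 (SE 0.17, limma adjusted p = 0.153) for Nr1i2 and 0.57 (SE 0.33, limma adjusted p = 0.330) for Nr1i3. Without wild-type mice 1 and 2 these changes were 0.35 and 0.14. Of 9 nuclear receptors and regulators tested, 0 passed by limma and 2 had an unadjusted p under 0.05, as did 22.6% of all tested liver probes. The smallest p belonged to the lipid-sensing receptor Ppara, with a change of 0.55 (SE 0.12, limma adjusted p = 0.0643).

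The partners of the esterases differed less. Gusb, the beta-glucuronidase that egasyn holds in the endoplasmic reticulum, had a change of -0.05 (SE 0.10, limma adjusted p = 0.804) beside the 1.25 of Ces1e. Kdelr2, a receptor that returns proteins to the endoplasmic reticulum, had a change of -0.07 (limma adjusted p = 0.828), so that 0 of 2 tested genes of this list passed. Of 6 genes of triglyceride mobilization and VLDL assembly 0 passed, with Cideb at 0.32 (limma adjusted p = 0.153), Mttp at 0.14 (limma adjusted p = 0.470) and a median of 0.15.

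Among 14 other ester and lipid hydrolases tested, 0 passed by limma and 7 had an unadjusted p under 0.05, against 22.6% of all tested liver probes. The smallest p belonged to Lipa, the lysosomal acid lipase, with a change of 0.50 (SE 0.13, limma adjusted p = 0.0945), and to Abhd5, the activator of adipose triglyceride lipase, with -0.52 (SE 0.14, limma adjusted p = 0.0971). The other carboxylesterase genes Ces1a, Ces1b and Ces2g had changes of 0.21, 0.17 and -0.07, and 0 of the 3 passed. In brain 0 genes of any of these lists passed, and none had an unadjusted p under 0.05, which 3.17% of all tested brain probes had.

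**Figure D5:**
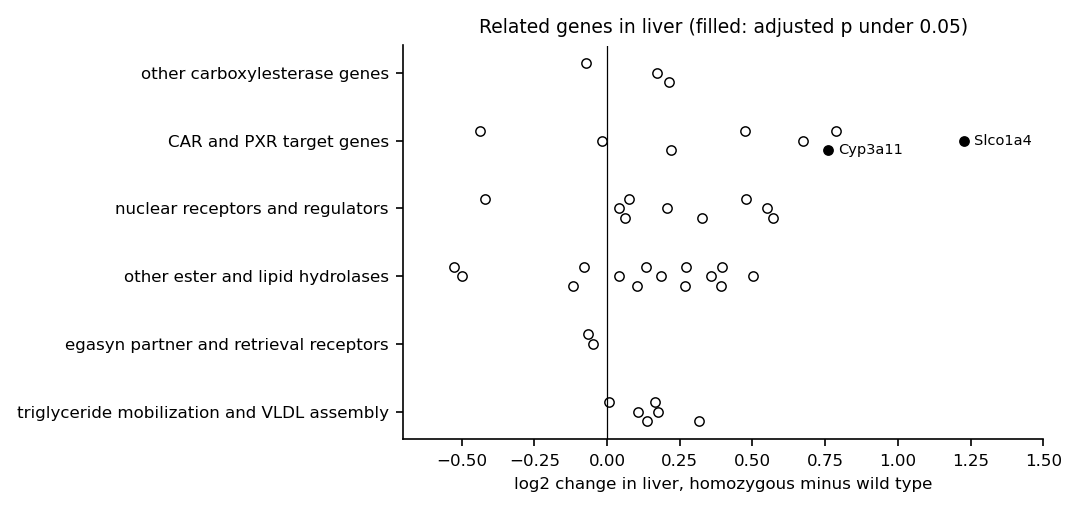
Log2 change in liver, homozygous minus wild type (horizontal axis), of 1 probe per gene in 6 lists of genes related to the carboxylesterases, 1 point per gene; filled points passed the threshold. Slco1a4 and Cyp3a11 are the 2 filled points, at 1.23 and 0.76.

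Levels of marker genes of other cells were set beside these results. Of 4 tested macrophage markers 0 rose and 1 fell, Vsig4, by 1.04 (SE 0.17, limma adjusted p = 0.0418), and the summed intensity of the 4 was 1040 to 1426 in wild-type and 740 to 870 in homozygous liver. All 4 had a change below 0, with a median of -0.59. All 4 also had an unadjusted p under 0.05, against 22.6% of all tested liver probes. Of the neutrophil and monocyte markers 1 could be tested, S100a8, which fell by 2.51 (SE 0.48, limma adjusted p = 0.0490), while Ngp and Camp were not detected. The summed intensity of the 4 on the array, S100a8, S100a9, Ngp and Camp, was 510 to 833 in wild-type and 442 to 477 in homozygous liver. Of these 4, 2 were detected on at least 1 liver array and 0 on all. In brain S100a8 and S100a9 differed by -1.99 and -1.70 (homozygous minus wild type), and by -0.38 and -0.31 without wild-type mice 1 and 2. Neither passed there. Of 4 blood markers 0 passed and 3 had an unadjusted p under 0.05, as did 22.6% of all tested liver probes. The change was above 0 for 3 of the 4, with Hba-a1, an alpha globin gene, at 0.73 (limma adjusted p = 0.0573). Slc4a1 differed in the opposite direction, by -0.44 (limma adjusted p = 0.155). The blood markers summed to 10760 to 14162 in wild-type and 17079 to 21631 in homozygous liver, which do not overlap. Hba-a1 was the brightest of them (mean log2 levels of 13.25 in wild-type and 13.98 in homozygous liver) and weighs most in this sum. Taken singly, 6.73% of all tested liver probes showed no overlap with homozygous mice higher. Of 3 fibroblast markers 0 passed and 2 had an unadjusted p under 0.05, against 22.6% of all tested liver probes. These were Col1a1 at -1.08 (limma adjusted p = 0.0624) and Lum at -0.46 (limma adjusted p = 0.116). The brightest of the 3, Dcn, differed in the opposite direction, by 0.23 (limma adjusted p = 0.259). The summed intensity of the fibroblast markers overlapped between genotypes (2399 to 3164 and 2420 to 3589). The hepatocyte markers had a median change of 0.12, with 0 of 7 passing, and summed to 123077 to 139136 in wild-type and 128935 to 135817 in homozygous liver. Of the tested markers of neurons (3), endothelium (3), pancreas (2) and choroid plexus (1), 0 passed and 0 had an unadjusted p under 0.05, and no marker of adipose tissue was tested.

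The calls of Vsig4 and S100a8 in liver depended on single arrays and on the processing. Both genes lost their call without wild-type mice 1 and 2 (changes of -1.14 for Vsig4 and -1.63 for S100a8), without either mouse alone, without homozygous mouse 1, 3 or 4, and with no detection filter. S100a8 lost its call also without wild-type mouse 4 or homozygous mouse 2, and passed in 3 of 17 alternatives. Its change was -0.98 without background subtraction and -1.20 with the authors' values, and that of Vsig4 was -0.66 with the authors' values. The part of these cells in the difference of Ces1e was not tested.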

How the data were processed

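RNA of brain and liver of 8 mice was measured on 16 single-colour bead arrays. The deposited signals are linear, unnormalized bead intensity values, each with a detection p-value, per the file headers. A second table deposited by the authors holds intensity values normalized over all arrays. The submitters' processing notes name GenomeStudio 2011.1, and its settings are not given in the sources used here.

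Intensities were background-corrected with nec of limma 3.58.1 in R 4.3.3 (detection p-values, offset 16), quantile-normalized and put on the log2 scale, within a tissue for genotype and over all 16 arrays for tissue. Probes with a detection p-value under 0.05 on 4 or more of the 8 arrays compared were tested. Groups were compared with limma (lmFit, eBayes) and Benjamini-Hochberg adjustment over all tested probes, threshold 0.05. Of 12 member probes 11 were tested in liver and 0 in brain, so the permutation test planned for brain was not run. The fit was checked on simulated data with noise drawn independently for each probe and array. Deviations shared by many probes of an array, as in the livers of wild-type mice 1 and 2, were not simulated. Precision is limited by 4 mice per group; the labels name separate animals.

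Every member probe is reported. From each list the text names the genes past the threshold, at most 2 others with the smallest p, and Nr1i2, Nr1i3, Gusb and Mttp for their role; a list uses the brightest probe of a gene. Ces2g, Hba-a1, Slc4a1, Col1a1, Lum and Dcn are named beyond that rule, after their values were seen. The genes most like Ces1e are the 5 with the highest r over the 8 liver arrays. Members and lists were chosen with earlier results of these data known. Promoter windows and gene order come from RefSeq (GRCm38.p6). Liver and brain arrays of a number come from 1 animal and so are paired; their deviations from the group means correlated with r between 1.65e-05 and 0.11. The labels and headers used here give no slide or scan batch. Brain arrays fell into 4 brighter and 4 dimmer ones, each with both genotypes, and no member was tested in brain within either. Alternatives were background correction, the authors' normalized values, the detection filter, variance and weight settings, blocks, scaling and leaving out arrays.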

Additional observations from a re-analysis of the deposited data

Results flagged for a closer look

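In wild-type liver the Ces1g level of mouse 2 was 5.64 on the log2 scale, while the other 3 wild-type mice lay between 6.75 and 6.92. The gap between mouse 2 and its nearest neighbour was 0.869 of the group's whole range, above the critical value of Dixon's test for 4 arrays. It was the 1 such case among 20 sets of 4 arrays examined, and chance gives about 1 in 20.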

How the results depend on the processing

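Over 17 alternatives, every tested Ces1 probe except Ces1f kept a liver change above 0, and Ces1f ran from -0.02 to 0.79. Ces2e, and Ces2a in the 16 alternatives that tested it, also stayed above 0. The 3 Ces3b probes did not, and ran from -0.09 to 0.26, from -0.09 to 0.05 and from -0.03 to 0.17. Ces1e passed in 6 of the 17. The number of member probes called in liver was 0 without background subtraction, with the strict filter, without a filter, with the replicate block and without wild-type mice 1 and 2, and 5 with array weights (Ces1d, Ces1e, Ces1f, Ces1g and Ces2e). It was between 0 and 1 when 1 array was left out. Of all liver probes 108 were called, against 64 without background subtraction, 30 with the strict filter, 35 without a filter, 2931 with array weights, 32 with the replicate block, 811 in one fit over all arrays, 23 without wild-type mice 1 and 2, and between 9 and 955 without 1 array. In brain 2 probes were called, against 1 without background subtraction, 1 with the authors' values, 0 with the strict filter, 1 with the replicate block, 5 with array brightness as a block, 4 within the brighter and 1 within the dimmer arrays, and between 2 and 4 without 1 array. The cause of these shifts was not tested. Replicate numbers join different animals across genotypes, and same-numbered liver arrays did not deviate together (r between -0.04 and -0.002). The calls of Ces1e, Slco1a4, Cyp3a11, Vsig4 and S100a8 were lost with that block. In brain the r of same-numbered arrays were between -0.51 and 0.56. With mouse as a replicate block, 10 member probes were called in each tissue comparison, the same number as without it. These probes passed the detection filter through liver alone and had to differ, so their count cannot check the block. Without the block 38.8% of all tested probes were called higher in liver in wild-type mice and 40.8% in homozygous mice. The strict filter left no member probe in the tissue comparisons and in brain. Dim probes such as Ces2a and Ces1g are limited by their signal over background.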

Other observations

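The genes of the factors that bind the D-box motif found upstream of Ces1 genes were looked at after that motif had been seen. In liver Dbp differed by 2.50 on the log2 scale (homozygous minus wild type, SE 0.72, limma adjusted p = 0.111) and by 0.98 without wild-type mice 1 and 2. Dbp levels ran from 7.44 to 10.98 in wild-type and from 11.29 to 12.01 in homozygous liver, so the groups did not overlap. The same held, with homozygous mice higher, for 6.73% of all tested liver probes. Tef, by the brighter of its 2 probes, differed by 1.00 (SE 0.27, limma adjusted p = 0.0964), and by 0.48 without those mice. The repressor Nfil3 differed in the opposite direction, by -1.50 (SE 0.33, limma adjusted p = 0.0619), and by -0.84 without them. The groups of Tef and Nfil3 did not overlap either, and the share of 6.73% covers homozygous mice higher only. None of the 3 passed the threshold, and Hlf was not tested. In brain the differences were 0.11 for Dbp, 0.01 for Tef and -0.05 for Nfil3. No relation between these genes and the carboxylesterases was tested.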
